A study of Mus musculus with 12 samples.

Results

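The flavin-containing monooxygenases and the aldehyde oxidases are 2 enzyme families of the liver that oxidize drugs and other foreign compounds without cytochrome P450. The genes followed here were Fmo1, Fmo2, Fmo4, Fmo5, Aox1 and Aox3, taken by name, so 6 of the 52636 genes counted. All 6 passed the filter on low counts and were tested. Liver RNA was sequenced from 12 male C57Bl/6J mice at 16 weeks of age, with 1 library per mouse. The 6 VDD-F1 mice were born to mothers on a vitamin D deficient diet from before mating until delivery, with calcium gluconate added, and the 6 VDS-F1 mice to mothers on a nutrient-matched, vitamin D sufficient diet. Mothers of both groups received the sufficient diet after delivery and all offspring received it after weaning, so the mice were alike in diet when their livers were taken. The study's authors state that VDD-F1 pups remained low in vitamin D early in life, after the change of diet, so exposure before and shortly after birth cannot be told apart. In the study's supplement the liver was weighed, as far as shown, in 7 animals (VDS3, VDS4, VDS5, VDS6, VDD4, VDD5 and VDD6), called recorded mice here. The remaining 5 (VDS1, VDS2, VDD1, VDD2 and VDD3) have no weight and are called unrecorded mice. Both diets occur in both sets, with 3 VDD-F1 and 4 VDS-F1 recorded mice and 3 VDD-F1 and 2 VDS-F1 unrecorded mice, and the sources used here do not say what else distinguished the sets.

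Flavin-containing monooxygenases sit in the membrane of the endoplasmic reticulum. They use NADPH, oxygen and the flavin cofactor FAD to add an oxygen atom to soft nucleophiles, mostly the nitrogen and sulfur atoms of amines, thioethers and thiocarbamides. Aldehyde oxidases are cytosolic enzymes that carry a molybdenum cofactor, iron-sulfur clusters and FAD, and they oxidize aldehydes and nitrogen-containing aromatic rings with water as the oxygen source. In the mouse the aldehyde oxidase genes lie next to each other in a row, and Aox1 and Aox3 are the members known from liver.

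The Aox1 gene (ENSMUSG00000063558.4) lies at chr1:58029931-58106413 of GRCm38, on the plus strand, and Aox3 (ENSMUSG00000064294.12) follows at chr1:58113130-58200698 on the same strand, 6716 bases further on. Their coding sequences of 4002 and 4008 bases were identical at 66.1% of aligned positions. No stretch of 50 bases in the transcripts of 1 of the 6 genes occurred in a transcript of any other gene named Fmo or Aox, so reads of that length were not shared among genes of these names. Of the 50-base stretches of Fmo1, 4.85% occurred in a transcript of a gene with a different name, against at most 0.434% for each of the others. The 200 bases upstream of the first annotated start of each gene are shown because these neighbours had the largest differences of the 6 genes between the recorded and the unrecorded mice. Sequences are from RefSeq on GRCm38.p6, plus strand, at chr1:58029731-58029930 for Aox1 and chr1:58112930-58113129 for Aox3, and capitals mark every match to 6 short motifs on either strand.
Aox1: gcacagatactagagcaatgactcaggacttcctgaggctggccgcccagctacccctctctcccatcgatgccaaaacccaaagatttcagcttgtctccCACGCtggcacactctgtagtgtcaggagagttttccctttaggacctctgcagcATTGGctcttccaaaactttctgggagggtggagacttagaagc
Aox3: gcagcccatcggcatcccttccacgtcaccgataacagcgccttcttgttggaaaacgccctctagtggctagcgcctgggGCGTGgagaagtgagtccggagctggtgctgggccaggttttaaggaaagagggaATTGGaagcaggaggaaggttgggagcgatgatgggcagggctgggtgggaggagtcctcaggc

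Each window held 1 match to GCGTG, the core of the element bound by the aryl hydrocarbon receptor, and 1 match to CCAAT. In Aox1 both lay on the minus strand. Of 32851 RefSeq windows of the same length, with those of 1 chromosome left out, 24.7% held GCGTG and 29.3% held CCAAT. No match was found in either window to TGACNNNGC, the core of the element bound by Nrf2 (8.60% of windows), to AGGTCA, the motif of nuclear receptors (11.4%), to CACGTG (5.26%) or to TATAAA (9.96%). These are matches of letters, and no binding was measured.

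Fmo4, Fmo1 and Fmo2 lie in that order on the minus strand of chromosome 1, at chr1:162793188-162813972 (ENSMUSG00000026692.12), chr1:162829561-162866610 (ENSMUSG00000040181.14) and chr1:162874317-162898726 (ENSMUSG00000040170.13). Fmo5 (ENSMUSG00000028088.14) is apart from them, at chr3:97628804-97655282 on the plus strand. The coding sequences of these 4 genes were identical at 57.6% to 61.5% of aligned positions in every pair. The lowest value was that of Fmo4 and Fmo5 and the highest that of Fmo2 and Fmo5.

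Each library held between 14275793 and 20815066 counts on genes. Levels are given as CPM, counts scaled to library size with TMM and multiplied by 1e6, which allows comparison of 1 gene between mice. Levels of different genes are given as RPKM, which divides the CPM by the length of the gene's merged exons in kilobases. Between 78 and 192 counts per library stood behind Fmo4 and between 79 and 392 behind Fmo2, against at least 819 behind each of the other 4 genes. VDD2 had the highest TMM factor, 1.14, where the other 11 libraries lay between 0.899 and 1.04. In bulk tissue, fewer cells of a type and less RNA per cell cannot be told apart.

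Among the monooxygenases Fmo5 was the most abundant per length, at 130 ± 19.4 RPKM (SD, n = 12), followed by Fmo1 at 24.5 ± 4.63, Fmo4 at 2.12 ± 0.750 and Fmo2 at 1.90 ± 0.898. Fmo5 differs from its relatives in that it oxidizes few classical substrates and inserts oxygen into ketones. It ranked 296 of the 12442 tested genes with a length. It made up 76.0% to 87.7% of the summed RPKM of the 4 genes in every liver, and Fmo1 made up 10.4% to 20.1%. Fmo1, an enzyme of broad substrate range, ranked 1413. Fmo2, known mainly from lung, and Fmo4 each contributed at most 2.61% and 2.19%, and their levels overlapped (0.831 to 3.45 and 1.09 to 3.60 RPKM).

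Of the aldehyde oxidases Aox3 was the more abundant, at 112 ± 33.9 RPKM (SD, n = 12), and ranked 347. Aox1 had 11.4 ± 4.09 RPKM. The ratio of Aox3 to Aox1 per length lay between 6.93 and 18.5 over the livers. In the order of the 6 genes, the ranges of Fmo5 (103 to 159 RPKM) and Aox3 (54.9 to 159) overlapped, as did those of Fmo4 and Fmo2. The ranges of Aox3 and Fmo1, of Fmo1 and Aox1, and of Aox1 and Fmo4 did not overlap.

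**Figure D1:**
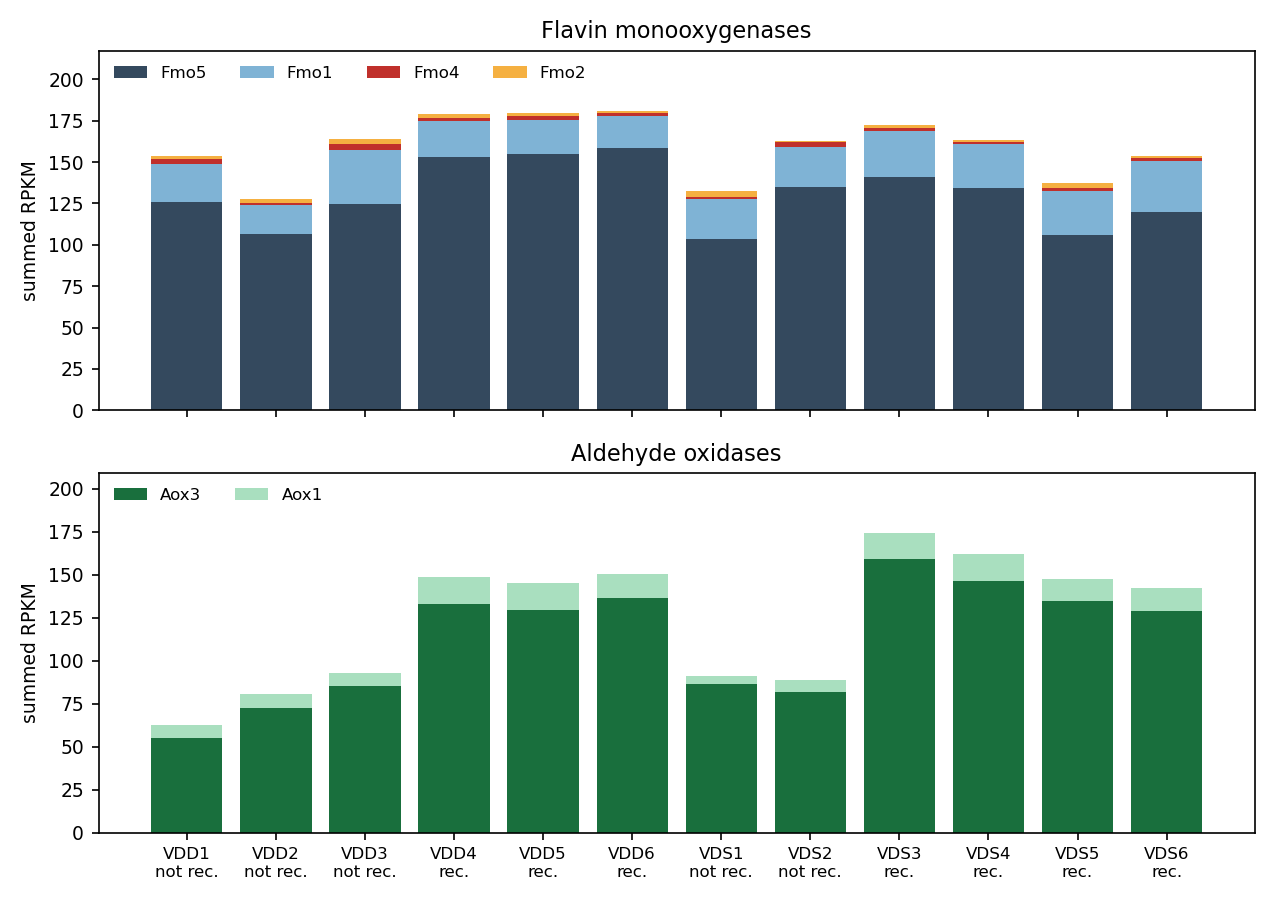
Stacked bars give the RPKM of the flavin monooxygenases (top) and the aldehyde oxidases (bottom) in each of the 12 livers, with rec. marking recorded and not rec. unrecorded mice. Fmo5 and Aox3 make up most of each bar, and the aldehyde oxidase bars of the 5 unrecorded mice (62.8 to 92.6 RPKM) are all lower than those of the 7 recorded mice (142 to 174 RPKM).

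Fmo6, Fmo9 and Aox4 had 0 counts in all 12 libraries, and Aox2 had 0 to 2. A count of 0 means only that the genes were not detectable at this depth. Xdh, the related xanthine dehydrogenase that also carries the molybdenum cofactor, was at 153 ± 22.5 CPM (SD, n = 6) in VDD-F1 mice and at 170 ± 18.8 in VDS-F1 mice.

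The comparison of diets asked whether vitamin D deficiency before birth was followed by altered gene expression in the adult liver. None of the 6 genes differed between the diets in the quasi-likelihood test of edgeR, at an adjusted p-value under 0.05 with a log2-fold change above 1 or below -1 or with any fold. Over all 12453 genes tested, 0.0402% passed the first rule and 0.0402% the second. At an unadjusted p-value under 0.05 stood 1 of the 6, Fmo4, against 15.8% of all genes. DESeq2's Wald test also called 0 of the 6, with the fold threshold or with any fold, where it called 2.03% and 4.05% of all genes. The 2 diet groups overlapped for all 6 genes, where 1.18% of all genes had groups that did not overlap.

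Fmo4 had the largest difference by diet. Its CPM had a lowest, median and highest value of 6.42, 8.19 and 13.3 in VDD-F1 and of 4.06, 6.59 and 10.03 in VDS-F1. The 2 highest livers, VDD3 and VDD1, were unrecorded VDD-F1 mice. The log2-fold change was 0.51 ± 0.23 (SE; 95% interval 0.0073 to 1.0), with an adjusted p-value of 0.309 in edgeR.

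The lowest, median and highest values of Fmo1 were 107, 133 and 204 CPM among VDD-F1 mice, against 151, 167 and 195 among VDS-F1 mice. Of the VDD-F1 mice, 5 lay under the lowest VDS-F1 mouse, and VDD3 had the highest level of all. The log2-fold change was -0.26 ± 0.13 (SE), with an adjusted p-value of 0.374 in edgeR. Without VDD3 it was -0.39, with an adjusted p-value of 0.0644 in edgeR, where 1.14% of all genes passed with any fold. Without VDD2 it was -0.19, with an adjusted p-value of 0.568 in edgeR.

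Fmo5 ranged from 606 to 901 CPM (median 791) in VDD-F1, and from 586 to 800 (median 721) in VDS-F1. The 3 highest livers were the 3 recorded VDD-F1 mice. Its log2-fold change by diet was 0.16 ± 0.12 (SE), with an adjusted p-value of 0.571 in edgeR. Fmo2 ranged from 7.13 to 18.6 CPM (median 10.01) among VDD-F1 mice and from 4.66 to 19.3 (median 7.42) among VDS-F1 mice, with a log2-fold change of 0.12 ± 0.35 (adjusted p = 0.907, edgeR).

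Aox1 had similar means in the diets, 98.8 ± 34.2 CPM (SD, n = 6) in VDD-F1 mice and 99.3 ± 40.1 in VDS-F1 mice, with a 95% interval of the log2-fold change from -0.63 to 0.62. With the set in the model the log2-fold change of Aox1 by diet was 0.22 ± 0.11 (SE; adjusted p = 0.321, edgeR). Aox3 had 717 ± 249 and 863 ± 224 CPM, with a log2-fold change of -0.27 ± 0.24 (SE; adjusted p = 0.619, edgeR) that moved to -0.14 without VDD1 and -0.37 without VDD6 and to -0.16 with the set in the model. Within each diet both genes fell into separate levels by set.

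**Figure D2:**
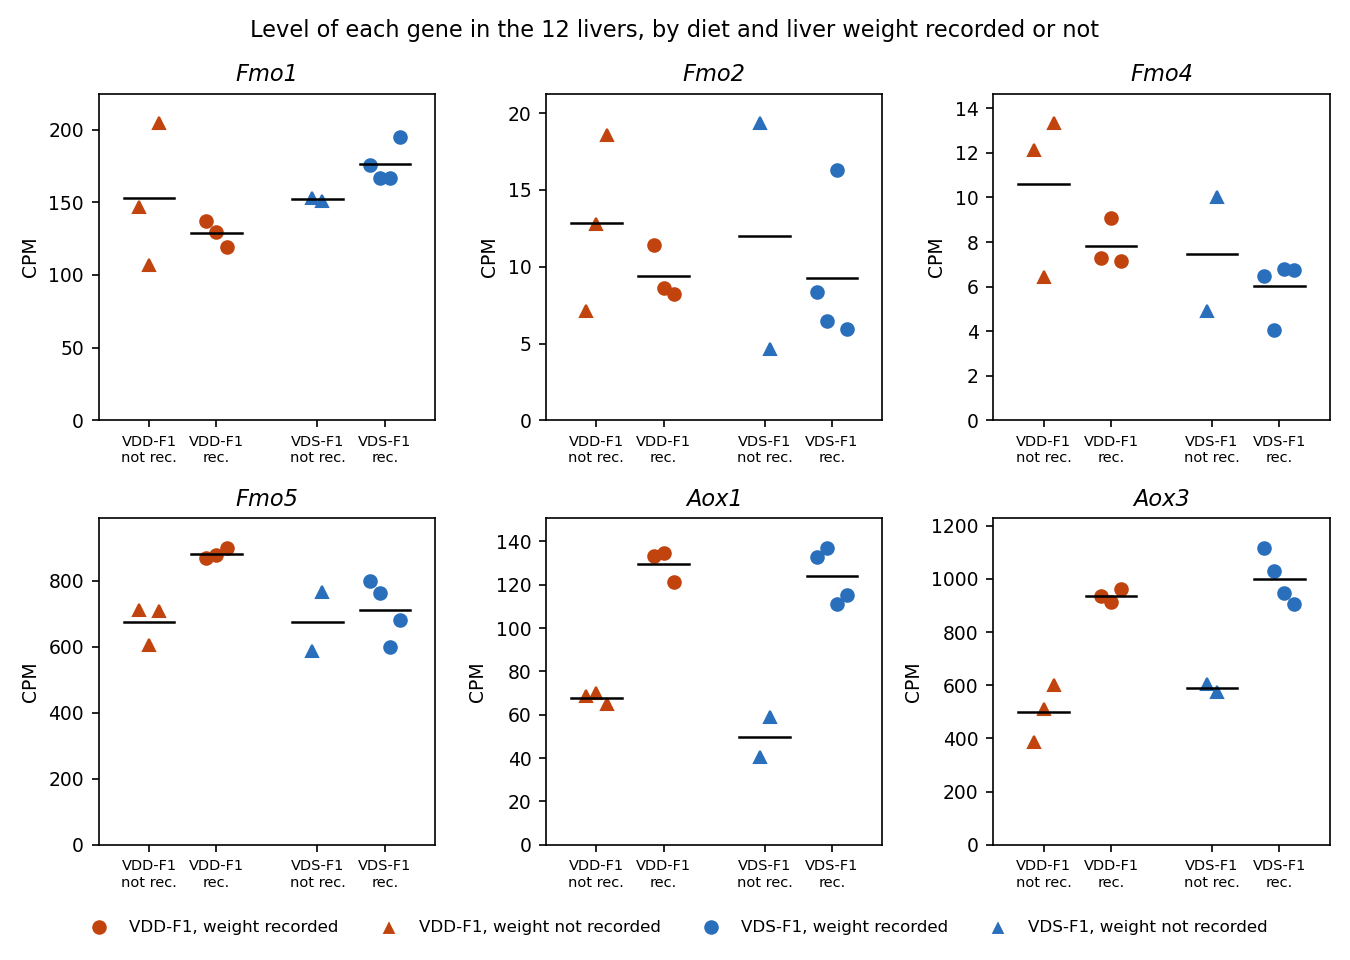
Each panel shows 1 gene in CPM on a linear axis from 0, with 1 point per liver, triangles for the 5 mice without (not rec.) and circles for the 7 mice with (rec.) a recorded liver weight, and a line at the mean of each of the 4 groups. The recorded mice lie above all unrecorded mice for Aox1 and Aox3 in both diets. For the other 4 genes the sets overlap over all 12 mice.

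Aox1 and Aox3 were higher in the recorded than in the unrecorded mice. Aox1 had 68.9, 70.0 and 64.8 CPM in the unrecorded VDD1, VDD2 and VDD3, and 40.4 and 59.1 CPM in VDS1 and VDS2. In the 7 recorded mice its lowest, median and highest values were 111, 133 and 137 CPM. The lowest recorded liver, VDS5, thus had more than any unrecorded liver. With diet in the model the log2-fold change between sets was 1.11 ± 0.11 (SE; 95% interval 0.87 to 1.36), a fold of 2.16, with an adjusted p-value of 0.000231 in edgeR. By p-value Aox1 ranked 8 of all genes tested.

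Aox3 had 386, 511 and 599 CPM in VDD1, VDD2 and VDD3, and 606 and 575 CPM in VDS1 and VDS2. In the recorded mice its lowest, median and highest values were 906, 949 and 1117 CPM, so these sets did not overlap either. The log2-fold change was 0.84 ± 0.11 (SE; 95% interval 0.60 to 1.07), a fold of 1.79, with an adjusted p-value of 0.00175 in edgeR, which passes at any fold but not the fold threshold. The gene ranked 18.

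Of the 6 genes, 1 passed with a log2-fold change above 1 and 2 passed with any fold, both higher in the recorded mice. Over all genes tested, 0.891% passed with the fold threshold, 2.46% with any fold and 0.899% with any fold and higher in the recorded mice. The sets did not overlap for 2 of the 6 genes, against 1.8% of all genes, with 0.891% of all genes wholly higher in the recorded mice. At an unadjusted p-value under 0.05 stood 3 of the 6, against 13.9% of all genes. The median log2-fold change was 0.10 over the 6 genes and -0.011 over all genes.

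The difference was also present within each diet, in fits on the mice of that diet alone, a choice made with the data already in view. In the 6 VDS-F1 mice the log2-fold change between sets was 1.32 ± 0.16 (SE) for Aox1 and 0.76 ± 0.11 for Aox3, with adjusted p-values of 0.00469 and 0.0117 in edgeR, where 0.787% of all genes passed with the fold threshold and 1.56% with any fold. In the 6 VDD-F1 mice Aox1 changed by 0.93 ± 0.12 with an adjusted p-value of 0.0332 in edgeR. It passed with any fold, where 0.305% of all genes did, but not with the fold threshold, where 0.257% did. Aox3 had a log2-fold change of 0.91 ± 0.18 there, with an adjusted p-value of 0.124 in edgeR. The fold of Aox1 over all mice rested in part on VDS1, the lowest liver, without which its log2-fold change was 0.98 (adjusted p = 0.000173, edgeR) and no longer above 1. Without VDD2 the log2-fold changes were 1.15 for Aox1 and 0.84 for Aox3.

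**Figure D3:**
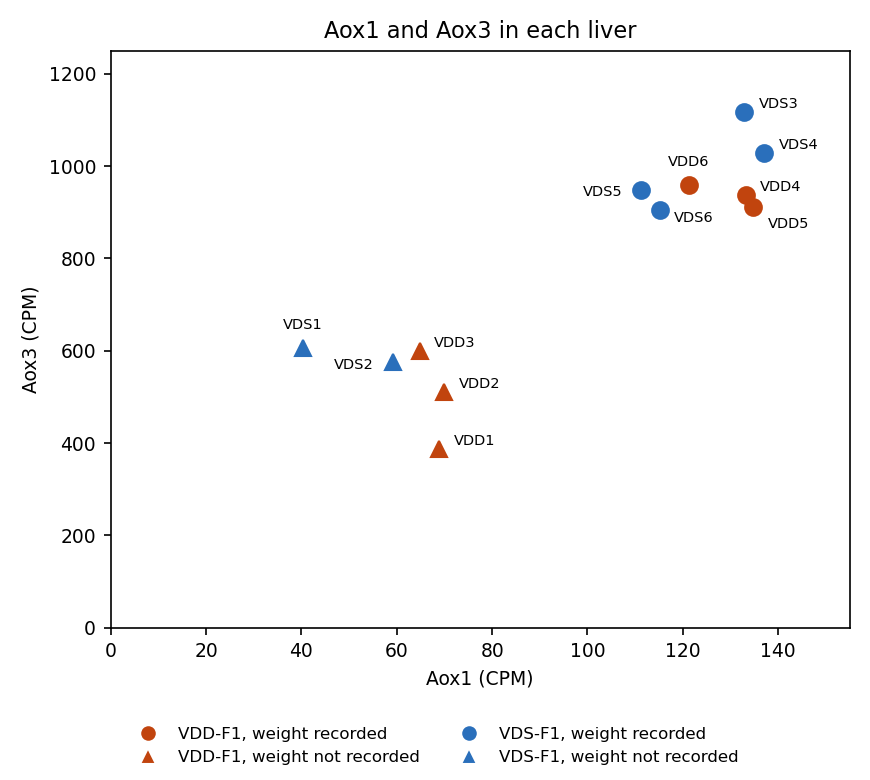
The CPM of Aox1 (horizontal) and of Aox3 (vertical) are plotted for each of the 12 livers on linear axes from 0, colored by diet, with circles for recorded and triangles for unrecorded mice. The 5 unrecorded livers lie in the lower left (up to 70.0 CPM of Aox1 and 606 of Aox3) and the 7 recorded livers in the upper right.

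The livers formed 2 separate groups in the levels of this pair, so a correlation over all mice would only restate the sets. After the mean of each diet and set was removed, Pearson's r of the log2 CPM of Aox1 and Aox3 was -0.16 over the 12 livers, as a description without a test. Aox1 made up 8.67% to 10.7% of the summed aldehyde oxidase RPKM in the recorded mice and 5.12% to 12.6% in the unrecorded mice. The lowest share was in VDS1 and the highest in VDD1.

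The monooxygenases did not pass the test between sets. Fmo5 had 713, 606 and 708 CPM in VDD1 to VDD3 and 586 and 767 in VDS1 and VDS2, against a lowest, median and highest value of 600, 800 and 901 in the recorded mice. Its log2-fold change was 0.24 ± 0.11 (SE), with an unadjusted p-value of 0.0469 and an adjusted p-value of 0.349 in edgeR. Fmo4 and Fmo2 had log2-fold changes of -0.38 ± 0.22 and -0.42 ± 0.34, with adjusted p-values of 0.50 and 0.67 in edgeR. Fmo1 had -0.034 ± 0.14 and an adjusted p-value of 0.954 in edgeR. In fits on 1 diet alone, Fmo5 had 0.39 ± 0.14 in VDD-F1 mice (adjusted p = 0.337, edgeR) and 0.075 ± 0.14 in VDS-F1 mice (adjusted p = 0.870, edgeR). Fmo1 had opposite signs in the diets, 0.21 ± 0.099 in VDS-F1 mice (adjusted p = 0.387, edgeR) and -0.25 ± 0.22 in VDD-F1 mice (adjusted p = 0.782, edgeR).

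**Figure D4:**
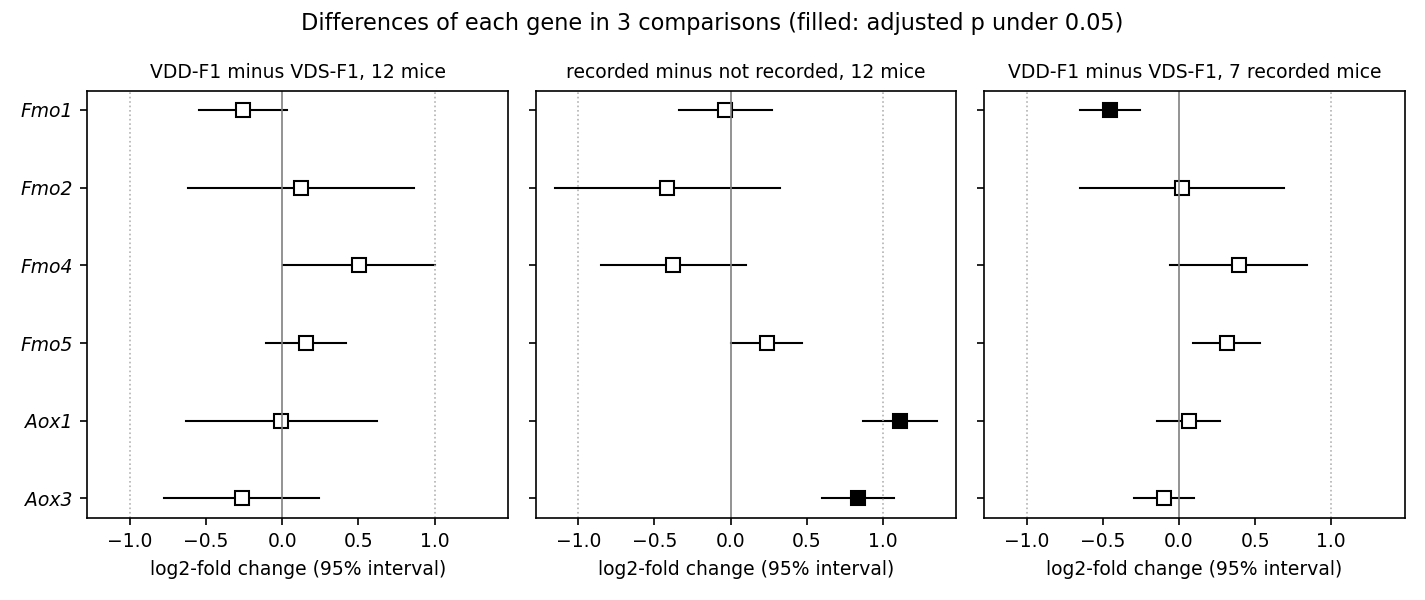
Squares give the log2-fold change of each gene and lines its 95% interval, by diet in all 12 mice (left), between the sets of mice with diet in the model (middle) and by diet in the 7 recorded mice (right), filled where edgeR's adjusted p-value is under 0.05, with dotted lines at 1 and -1. Filled squares are those of Aox1 (1.11) and Aox3 (0.84) between sets and of Fmo1 (-0.45) by diet in the recorded mice.

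Diet was also compared within each set. In the recorded mice Fmo1 had 137, 130 and 119 CPM in VDD4, VDD5 and VDD6, and 175, 167, 167 and 195 in VDS3 to VDS6. All VDD-F1 values lay under all VDS-F1 values. The log2-fold change of Fmo1 was -0.45 ± 0.090 (SE; 95% interval -0.65 to -0.26), with an adjusted p-value of 0.00772 in edgeR. It was the 1 gene of the 6 to pass with any fold, where 11% of all genes passed, and 0 of the 6 passed with the fold threshold, where 4.3% did. The share of all genes that pass is high in this comparison.

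Fmo5 had 869, 879 and 901 CPM in the recorded VDD-F1 mice and 800, 762, 600 and 680 in the recorded VDS-F1 mice. The VDD-F1 values lay above all VDS-F1 values, with a log2-fold change of 0.31 ± 0.10 (SE) and an adjusted p-value of 0.0739 in edgeR. Fmo4 also did not overlap, at 7.13 to 9.10 CPM in VDD-F1 and 4.06 to 6.80 in VDS-F1, with an adjusted p-value of 0.264 in edgeR. Groups that did not overlap were thus seen for 3 of the 6 genes, where 23.4% of all genes had them. Aox1 and Aox3 had log2-fold changes of 0.063 ± 0.095 and -0.095 ± 0.090, with 95% intervals of -0.15 to 0.27 and -0.29 to 0.10.

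In the 5 unrecorded mice 0% of all genes passed, and none of the 6 did in edgeR, with 0 of the 6 at an unadjusted p-value under 0.05 against 3.79% of all genes. Fmo1 had 147, 107 and 204 CPM in VDD1 to VDD3 and 153 and 151 in VDS1 and VDS2. The 2 VDS-F1 livers lay inside the range of the 3 VDD-F1 livers. Aox1 had a log2-fold change by diet of 0.45 ± 0.19 (SE) in these mice, with an unadjusted p-value of 0.0529 and an adjusted p-value of 0.999 in edgeR.

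The test of whether the diet difference itself differed between sets passed for 0 of the 6 genes in edgeR, and 0 had an unadjusted p-value under 0.05, where 0.0803% of all genes passed with the fold threshold, 0.0883% with any fold and 9.01% at the unadjusted p-value. DESeq2 also called 0 of the 6, against 0.779% of all genes with the fold threshold and 1.11% with any fold. For Fmo1 this difference of differences was -0.46 ± 0.26 (SE; adjusted p = 0.667, edgeR). For Aox1 it was -0.39 ± 0.20 (adjusted p = 0.611, edgeR). Over 16 alternatives it ranged from -0.66 to -0.21 for Fmo1 and from -0.68 to -0.14 for Aox1. The lower Fmo1 of VDD-F1 in the recorded mice is therefore not shown to be absent from the unrecorded mice.

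Genes that build or feed these enzymes were counted in the same fits. Of the 5 genes of molybdenum cofactor synthesis, 0 passed by diet and 2 had an unadjusted p-value under 0.05 in edgeR, both lower in VDD-F1, where 15.8% of all genes had one. They were Mocs1, of the first step (69.1 ± 10.5 CPM, SD, n = 6, in VDD-F1 mice and 95.6 ± 17.5 in VDS-F1 mice; log2-fold change -0.47, adjusted p = 0.118, edgeR), and Gphn, whose product gephyrin inserts the molybdenum (-0.31, adjusted p = 0.168, edgeR). The median log2-fold change of the 5 was -0.19 by diet and 0.00025 between sets, where 0 passed and 0 had an unadjusted p-value under 0.05. Of the 4 other molybdenum enzymes tested, 1 passed with any fold between sets (2.46% of all genes), the sulfite oxidase gene Suox, at 163 ± 16.0 CPM in recorded and 119 ± 17.8 in unrecorded mice (SD, n = 7 and 5). Its log2-fold change was 0.47 ± 0.11 (SE), with an adjusted p-value of 0.0392 in edgeR. The other 3, Xdh, Marc1 and Marc2, had log2-fold changes of -0.15 to -0.059 with adjusted p-values of 0.592 to 0.855 in edgeR, and 0 of the 4 passed by diet.

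Both enzyme families need FAD, and the monooxygenases also need NADPH. Of the 4 genes of riboflavin uptake and FAD synthesis tested, 0 passed in either comparison, and 3 had an unadjusted p-value under 0.05 by diet (15.8% of all genes). The riboflavin transporter Slc52a2 had the smallest of these (-0.42, adjusted p = 0.221, edgeR), followed by the riboflavin kinase Rfk (0.20, adjusted p = 0.243, edgeR). Of the 4 genes of NADPH supply, 2 passed with any fold between sets (2.46% of all genes) and both were lower in the recorded mice. Of these, 1 also passed the fold threshold (0.891% of all genes). It was G6pdx, of the first step of the pentose phosphate pathway, which had 6.13 ± 1.0 CPM in recorded and 12.2 ± 2.88 in unrecorded mice (SD, n = 7 and 5; log2-fold change -1.01, adjusted p = 0.00602, edgeR). Pgd, of a later step, had 52.8 ± 5.12 and 85.0 ± 21.4 CPM (-0.68, adjusted p = 0.0260, edgeR). The other NADPH genes, Me1 and Idh1, had -0.54 and 0.16 with adjusted p-values of 0.559 and 0.620 in edgeR. Of the 3 genes of microsomal electron transfer, 0 passed, and Por, the reductase that feeds cytochrome P450, had 0.63 between sets (adjusted p = 0.176, edgeR). Cyb5r3, the reductase of cytochrome b5, had -0.38 between sets (adjusted p = 0.238, edgeR), and Cyb5a, cytochrome b5 itself, had -0.30 by diet (adjusted p = 0.223, edgeR).

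Markers of the liver's cell types were read beside the difference in Aox1 and Aox3. Between sets, 0 of the 5 hepatocyte, 5 endothelial, 6 stellate and fibroblast, 5 Kupffer cell, 4 cholangiocyte and 3 lymphocyte markers tested passed at any fold in edgeR. The summed level of the hepatocyte markers was 76752 to 100666 CPM in recorded and 86358 to 103844 in unrecorded mice, and that of the Kupffer cell markers 73.7 to 174 and 114 to 230 CPM. The endothelial sums were 187 to 233 and 172 to 210 CPM, and the stellate and fibroblast sums 266 to 544 and 284 to 849 CPM. The cholangiocyte sums were 16.9 to 40.02 and 14.6 to 48.1 CPM and the lymphocyte sums 8.08 to 12.9 and 4.82 to 28.7 CPM. All of these ranges overlapped between the sets. At an unadjusted p-value under 0.05 (13.9% of all genes) stood 1 hepatocyte marker and 2 Kupffer cell markers, lower in the recorded mice, and 2 endothelial markers, higher in them, and the part of other cells in the differences of Aox1 and Aox3 was not tested.

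By diet, 0 of the same markers passed. An unadjusted p-value under 0.05, which 15.8% of all genes had, was seen for 3 of the 6 stellate and fibroblast and 2 of the 4 cholangiocyte markers, all higher in VDD-F1. The smallest of the stellate and fibroblast list were Col3a1 and Col1a1 (adjusted p = 0.0855 and 0.0883, edgeR). The same was so for 1 hepatocyte and 2 Kupffer cell markers, lower in VDD-F1, for 3 endothelial markers, 1 higher and 2 lower, and for 0 lymphocyte markers. The lung markers Sftpc, Sftpb and Scgb1a1 and the kidney marker Umod had 0 counts in every library and the kidney markers Slc34a1 and Kap 0 to 2. Genes known to differ by sex in liver were also counted. Of 7 male-biased liver genes, 0 passed by diet and 3 had an unadjusted p-value under 0.05, all lower in VDD-F1 (15.8% of all genes by diet), and 0 had one between sets (13.9%). The smallest by diet were those of Cyp7b1 (-1.68, adjusted p = 0.0918, edgeR) and Hsd3b5 (-1.73, adjusted p = 0.125, edgeR). Of 7 female-biased genes only Cyp2a4 had enough counts to be tested, with 21.4 ± 17.5 CPM (SD, n = 6) in VDD-F1 mice and 0.138 ± 0.159 in VDS-F1 mice ( adjusted p = 0.0627, edgeR). Its reads can be shared with a near-identical copy.

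For each gene the 3 genes with the most similar pattern were taken by Pearson's r of log2 CPM over the 12 livers, which share library and depth, and r is a description. For Aox1 these were Cyp3a59 (r = 0.97), Gstm1 (0.95) and Akr1c19 (0.95), and for Aox3 Ugt2a3 (0.96), Ces2a (0.95) and Cyp2a12 (0.95). After the means of diet and set were removed, r fell to between 0.55 and 0.66 for the first 3 and between 0.47 and 0.70 for the others. The genes most like Fmo1 were Atp13a1 (0.97), Lmf1 (0.95) and Cyp2d26 (0.95), and for these r was between 0.94 and 0.98 after the means were removed. Fmo5 was most like Cbs (0.89), Crem (0.84) and Hfe (0.84). Fmo4 was most like Dsc2 (0.91), Rdh14 (0.87) and Gm26616 (0.85), and Fmo2 most like Pip4p2 (0.85), Chek2 (0.85) and Rabac1 (0.83). Counts per library were 78 to 192 for Fmo4 and 79 to 392 for Fmo2, and the part of counting error in these values was not tested.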

How the data were processed

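Liver RNA of 6 VDD-F1 and 6 VDS-F1 male mice was sequenced after removal of ribosomal RNA. After trimming, the authors used STAR with mm10 and the GENCODE M15 annotation and deposited raw counts per gene in 3 columns, unstranded, forward and reverse (the STAR version is not given in the sources used here). The reverse-strand counts, 92.7% to 95.8% of the stranded counts, were used. Symbols and positions come from GENCODE M21 on GRCm38 (52403 of 52636 genes matched).

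The 12453 genes whose mean count reached 12 were tested with edgeR 4.0.16 in R 4.3.3 (TMM, quasi-likelihood test, Benjamini-Hochberg adjustment over all genes tested), where the study's methods name DESeq2. The fits had diet alone, diet and set of mice, or their interaction. A call needed both an adjusted p-value under 0.05 and an absolute log2-fold change over 1. The sets were read from the supplement's picture of the livers, matched to the samples by group and number. Each mouse gave 1 library, so p-values measure the spread between mice, and litters are not given. No 2 libraries of a group agreed within sampling noise.

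The members and gene lists were chosen with earlier results of these data known. Genes named are the 6 members, their nearest relatives, called genes of the lists, up to 2 genes per list with the smallest p-value by diet, members of a short list named in full, and the 3 genes most like each member. A single item named by this rule is not reported here. Alternatives were DESeq2 1.42.0, its size factors, voom with quality weights (limma 3.58.1), the newer edgeR form, other filters, the count without strand, other covariates, a replicate block, each set alone and each mouse left out. The scripts were tested on simulated data. Coding sequences were aligned with Biopython 1.88 in Python 3.11.15, and figures drawn with matplotlib 3.10.9.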

Additional observations from a re-analysis of the deposited data

How the results depend on the processing

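Of the members, Aox1 kept a positive difference between sets under all 19 alternatives, at 0.93 to 1.32 with adjusted p-values up to 0.0332, and Aox3 did so at 0.76 to 0.91, with 18 of 19 adjusted p-values under 0.05. Aox1 fell under the fold threshold in VDD-F1 mice alone (0.93, so 0 members called and 1 at any fold) and without VDS-F1 replicate 1, with a range of 0.98 to 1.16 and of 0 to 1 members called over the mice left out. Fmo1, not called between sets, changed sign with diet left out (0.031), in VDS-F1 mice alone (0.21) and over the mice left out (-0.11 to 0.12). By diet no alternative called a member, and 1 member, Fmo1, passed with any fold in the recorded mice alone. The difference of Aox1 by diet, near 0, turned positive with voom (0.011), the set as a covariate (0.22), the replicate block (0.052), the recorded mice (0.063) and the unrecorded mice (0.45), and ranged from -0.17 to 0.11 over the mice left out. In the unrecorded mice Fmo1 was at 0.0064 and Fmo5 at -0.00034 by diet. Without 1 mouse, Fmo2 ranged from -0.080 to 0.41, Fmo1 from -0.39 to -0.19 and Aox3 from -0.37 to -0.14 by diet, and the interaction from -1.43 to 0.62 for Fmo2, -0.73 to 0.31 for Fmo4 and -0.0062 to 0.27 for Aox3. The cause of these changes was not tested.

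Counts over all genes moved more. By diet 5 genes were called and 5 passed with any fold, against 253 and 504 with DESeq2, 252 and 590 with voom, 70 and 85 with no filter, 17 and 20 in the newer edgeR form, 21 and 28 with the set as a covariate, 536 and 1366 in the recorded mice, 0 and 0 in the unrecorded mice, 0 to 260 and 0 to 420 without 1 mouse. Between sets 111 and 306 genes compare with 581 at any fold in DESeq2, 202 and 555 with no filter, 69 and 174 with diet left out, 194 at any fold in VDS-F1, 32 and 38 in VDD-F1, and 68 to 178 and 143 to 498 without 1 mouse, with the highest counts without VDD2. The interaction gave 10 and 11 genes, 97 and 138 with DESeq2, 289 and 368 with no filter, and 3 to 244 and 3 to 332 without 1 mouse.

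The labels' replicate numbers mark different mice, and over all genes tested same-numbered mice did not deviate together (r from -0.076 to 0.10, with 0 of 12 mice closest to its own number). Numbers 1 and 2 were unrecorded and 4, 5 and 6 recorded in both diets, so the replicate block largely follows the sets. With this block the SE by diet was 0.19 for Aox1 and 0.14 for Aox3, against 0.29 and 0.24 without it. With the replicate block 17 genes were called by diet and 19 passed with any fold, none of them a member. Fmo2 and Fmo4 had the lowest counts of the members, under 100 in some libraries. The 5 unrecorded mice limit every comparison that uses them.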
